A study of Homo sapiens with 6 samples.

Results

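Integrins and laminins are the receptors and the sheet-forming ligands by which cells hold on to a basement membrane. The genes described here are all rows of the expression table whose symbol names an integrin subunit or a laminin chain: 38 of 60676 genes, made up of 18 integrin alpha subunits, 8 integrin beta subunits, 5 laminin alpha chains, 4 laminin beta chains and 3 laminin gamma chains. RNA came from the established human line NCI-H226, a pleural mesothelioma by its labels, in 3 libraries of cells given 500 nM HC278 for 24 h (replicates 1, 2 and 6) and 3 libraries of cells given the vehicle DMSO for the same time (replicates 1, 2 and 3). By the title of the series HC278 degrades TEAD, a family of DNA-binding partners of YAP and TAZ, and the comparison asks which transcripts differ under it. No allele or other agent separates the groups. Whether the replicates came from separate cultures is not stated, so every p-value reflects library-to-library spread that may be technical only.

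An integrin is a pair of an alpha and a beta subunit that spans the membrane. ITGB1 pairs with many alpha subunits, which set whether the receptor takes collagen, laminin or fibronectin. ITGB4 pairs with ITGA6 alone and anchors hemidesmosomes to laminin, whereas ITGB2 and its alpha subunits ITGAL, ITGAM, ITGAX and ITGAD are the integrins of leukocytes. A laminin is a cross-shaped trimer of an alpha, a beta and a gamma chain. Mesothelial cells rest on a basement membrane and are known to make laminins of their own.

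Total counts ran from 30486316 to 32646223 in the HC278 libraries and from 32532357 to 33181814 in the DMSO libraries, where 3 counts amount to between 0.0904 and 0.0984 counts per 1000000 (CPM); such limits cover counting error only. The mesothelial label was set against 12 markers, all of which were detected well enough to be tested. KRT8, KRT18, KRT7 and KRT19 were above 750 CPM and MSLN between 75.7 and 177 CPM in every library. The rest of the 12 were below these keratins in every library, some of them at only a few CPM. Whether these levels set mesothelial cells apart from other epithelial cells was not tested. LUM of the fibroblast list, CD3E of the leukocyte list, and GP9 and PF4 of the platelet list were at 0 in all 6 libraries. Other markers of those lists were detected, among them CD14 and PTPRC in every library. The 8 leukocyte markers summed to 1.70 to 2.77 CPM under HC278 and to 0.827 to 1.12 CPM with DMSO. The 5 markers of squamous or basal epithelium summed to 0.175 to 0.234 CPM under HC278 and to 0 with DMSO. Sums for platelets (4) were 0.105 to 0.158 CPM under HC278 and 0.0626 to 0.0906 CPM with DMSO. Those for lung epithelium (4) were 0.438 to 0.539 CPM under HC278 and 0.0626 to 0.121 CPM with DMSO. Endothelial markers (5) summed to 1.05 to 2.22 CPM under HC278 and to 0.634 to 1.24 CPM with DMSO. Fibroblast markers (5) summed to 2.69 to 4.03 CPM under HC278 and to 3.87 to 4.85 CPM with DMSO. Of the 12 mesothelial markers 3 rose and 1 fell in edgeR, where 10.8% of all genes tested were called. Their sum was 5810.3 to 11160 CPM under HC278 and 5709.7 to 7939 CPM with DMSO. HC278 replicate 6 stood apart: genes with a model over 8 kb took 24.2% of its counts, against 14.3% and 15.9% in HC278 replicates 1 and 2 and 17.0% to 20.4% in the DMSO libraries. The median model of the 38 genes was 7045 bases long, against 4818 for all genes with at least 100 counts in all, and their summed share of counts was 0.342%, 0.389% and 0.648% in HC278 replicates 1, 2 and 6 and 0.335%, 0.345% and 0.424% in DMSO replicates 1, 2 and 3. In bulk RNA, fewer cells that express a gene and less RNA of it per cell cannot be told apart.

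Levels per length, as the deposited transcripts per 1000000 (TPM), put receptors and chains of laminin on 1 scale. Over all 6 libraries 15 genes averaged at least 10 TPM, 7 averaged 1 to 10 TPM and 16 averaged under 1 TPM. ITGA3, the alpha subunit of a laminin receptor, was the most abundant, at 558 ± 193 TPM under HC278 and 472 ± 55.4 TPM with DMSO (SD, n = 3 each). Its partner ITGB1 followed at 428 ± 300.4 TPM under HC278 and 417 ± 109 TPM with DMSO. ITGB4 came next under HC278, at 222 ± 115 TPM, above LAMB1 and LAMC1 in each HC278 library, whereas with DMSO it had 76.3 ± 9.19 TPM and was below LAMB1, LAMC1 and ITGB5 in each library. LAMB1 and LAMC1, a beta and a gamma chain, had similar levels. LAMB1 had 135 ± 68.9 TPM and LAMC1 136 ± 92.2 TPM under HC278, and with DMSO LAMB1 had 122 ± 24.6 TPM and LAMC1 112 ± 27.8 TPM. LAMB1 was the higher of them in each DMSO library and in HC278 replicates 1 and 2, and the lower in HC278 replicate 6. The difference was not tested.

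Among alpha chains of laminin LAMA1 and LAMA5 led, and LAMA3, LAMA4 and LAMA2 followed with means over all libraries of 3.27, 2.49 and 0.2504 TPM. LAMA5 averaged 50.2 TPM and LAMA1 49.7 TPM under HC278, where LAMA5 was the higher of them in replicate 6 and the lower in replicates 1 and 2, and with DMSO LAMA5 averaged 22.0 TPM and LAMA1 51.8 TPM. Among integrin alpha subunits ITGA5, the fibronectin receptor subunit, came second by mean in each group, at 69.4 TPM under HC278 and 46.6 TPM with DMSO. ITGAV was above ITGA6 in each HC278 library, with means of 46.7 and 21.0 TPM, and below it in each DMSO library, with means of 29.9 TPM for ITGAV and 44.2 TPM for ITGA6. ITGAX averaged 20.4 TPM and ITGAE 13.3 TPM under HC278, with ITGAE the higher in replicate 1, and with DMSO ITGAX averaged 5.69 TPM and ITGAE 13.5 TPM, with ITGAE higher in each library. The ranges of ITGA5 overlapped with those of ITGAV under HC278 and of ITGA6 with DMSO. ITGB5, which pairs with ITGAV, averaged 85.6 TPM, and the collagen receptor subunits ITGA2, ITGA11 and ITGA1 averaged 4.61, 1.34 and 0.840 TPM. The least abundant genes were ITGAL, LAMB4, ITGA9, ITGAD and ITGA8, each with 3 counts or fewer in every library.

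**Figure D1:**
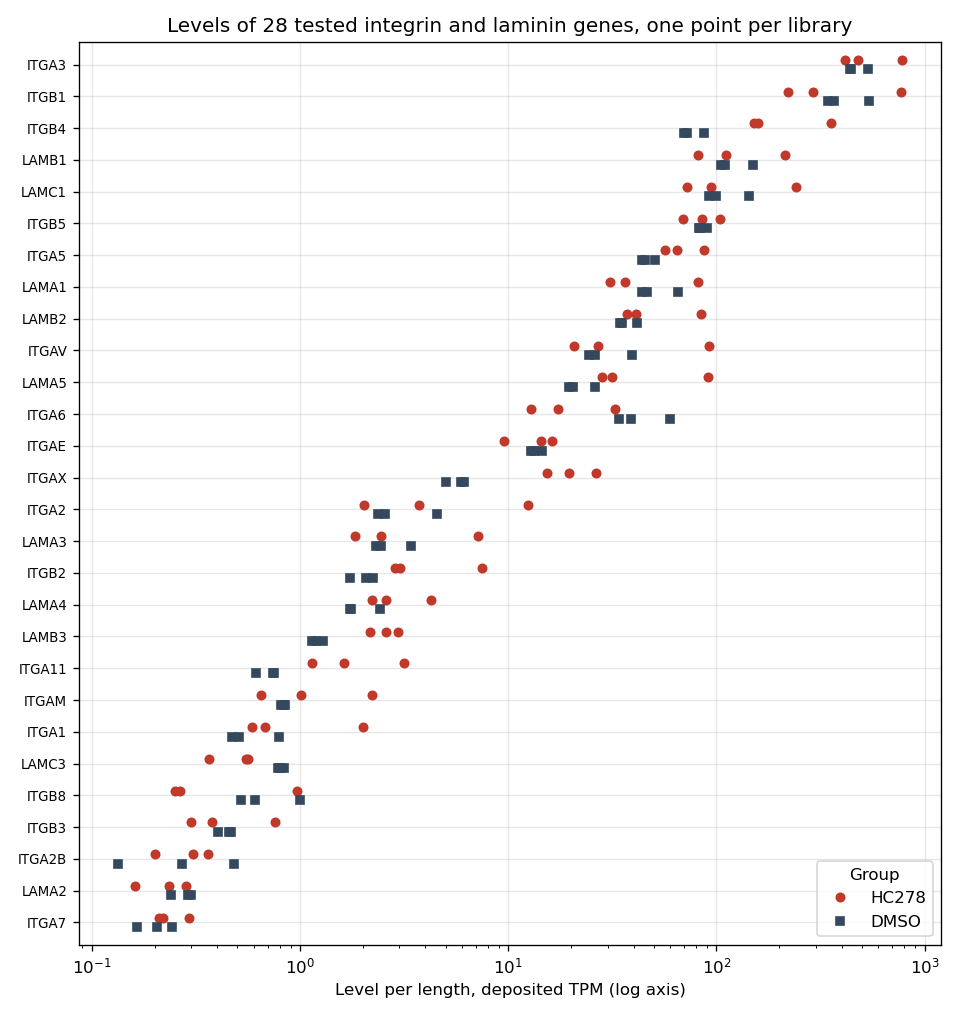
Deposited TPM (log axis) of 28 genes tested, a point per library, HC278 circles above DMSO squares, ordered by the mean over all libraries from ITGA3 at 515 TPM to ITGA7 at 0.223 TPM. For ITGAX, ITGB4 and LAMB3 all HC278 points lie to the right of all DMSO points, and for many genes the point farthest to the right in the HC278 row is replicate 6.

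Under HC278, 7 of the genes rose and 1 fell among the 29 with enough counts to be tested. ITGAX, ITGB4, ITGA11, ITGB2 and ITGA5 rose among the integrins, LAMB3 and LAMA4 rose among the laminins, and ITGA6 fell. Calls rest on edgeR's quasi-likelihood test at an adjusted p under 0.05 (Benjamini-Hochberg, 15510 genes tested), of which 10.8% were called, 5.4% as higher and 5.38% as lower; 8 of 29 is a larger share than that background, with no test of the difference. The median log2 fold change was 0.31 for the 29 genes and 0.05 for all genes tested. By class, 3 of 12 alpha subunits rose and 1 fell, 2 of 6 beta subunits rose, 1 of 5 laminin alpha and 1 of 3 laminin beta chains rose, and the gamma chains LAMC1 and LAMC3 did not pass (edgeR). LAMC3 had an unadjusted p under 0.05 and passed as lower with limma-voom and library weights, where 9196 genes of the whole table were called. The ranges of the groups did not overlap in CPM for 14 of the 29, 12 higher and 2 lower, against 34.6% of all genes tested. The remaining 9 genes, ITGA4, ITGA8, ITGA9, ITGA10, ITGAD, ITGAL, ITGB6, ITGB7 and LAMB4, had at most 16 counts in a library and were not tested. Among them ITGA4, a subunit of leukocyte receptors for VCAM1, had 3 to 16 counts a library, the epithelial ITGB6 4 to 10, and ITGB7, a partner of ITGA4 and ITGAE, 1 to 6.

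**Figure D2:**
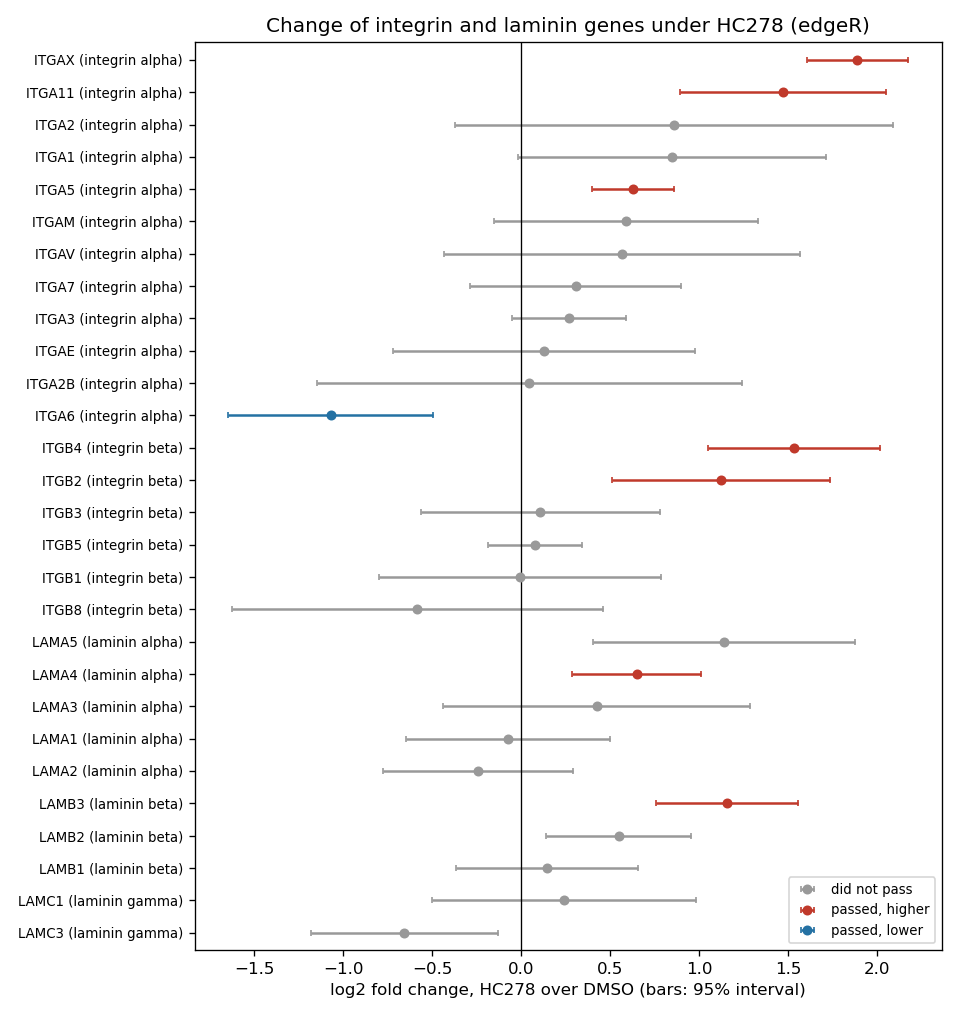
log2 fold change of HC278 over DMSO for 28 genes tested, by class, with 95% intervals of the edgeR fit. Red points passed as higher, the blue point (ITGA6) passed as lower and grey points did not pass; the intervals of ITGB5 and ITGA3 are narrow, and those of ITGA2 and ITGA2B span more than 2 log2 units.

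**Figure D3:**
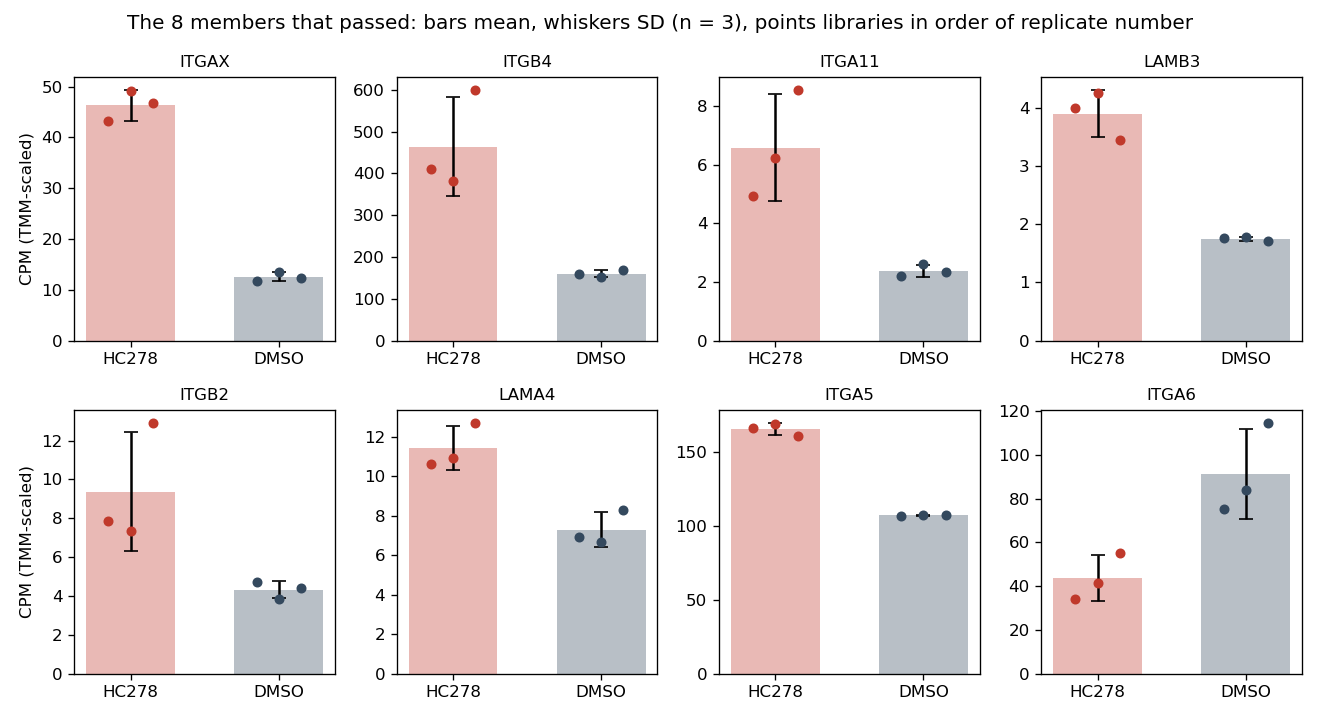
CPM over the TMM-scaled library size of the 8 genes that passed, HC278 left of DMSO. Bars are means, whiskers SD (n = 3) and points the libraries in order of replicate number; in none of the panels do the groups' points overlap.

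The subunits of the laminin-binding integrin of hemidesmosomes moved in opposite directions. ITGA6 had 34.3, 41.4 and 55.0 CPM under HC278 (replicates 1, 2, 6) and 75.2, 84.1 and 115 CPM under DMSO (replicates 1, 2, 3). Every HC278 library was below every DMSO library, and replicate 6 and replicate 3 were the highest of their groups. The log2 fold change was -1.07 (SE 0.24, edgeR adjusted p = 0.0405). ITGA6 (ENSG00000091409) lies on the plus strand of chromosome 2 at 172427354 to 172506459 (hg38). It passed without HC278 replicate 6 (adjusted p = 0.00557) and did not without DMSO replicate 1, 2 or 3 or HC278 replicate 1 or 2 (adjusted p from 0.0980 to 0.155) or by library size alone (0.0913).

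ITGB4, whose long cytoplasmic tail binds plectin and keratin-linked plaque proteins, had 410, 381 and 600.1 CPM under HC278 (replicates 1, 2, 6) and 160.3, 152 and 169 CPM under DMSO (replicates 1, 2, 3). All HC278 libraries were above all DMSO libraries, and replicate 6 stood highest. Its log2 fold change was 1.53 (SE 0.20, edgeR adjusted p = 0.00932), a 2.89-fold rise. ITGB4 (ENSG00000132470) lies on the plus strand of chromosome 17 at 75721328 to 75757818, where GALK1, on the other strand, overlaps it and has 12.2% of its counts. The call held without each HC278 library in turn and was lost without DMSO replicate 1, 2 or 3 (adjusted p = 0.0684, 0.0739 and 0.0628). Per length, the ratio of ITGB4 to ITGA6 was 11.9, 9.14 and 10.8 in the HC278 libraries and 2.11, 1.80 and 1.46 in the DMSO libraries; this ratio was chosen after the values were seen, and an exact two-sided permutation test gave p = 0.1, the smallest that 3 against 3 libraries allow. PLEC, the plectin that ITGB4 binds, was looked up after its value was seen and did not pass (log2 0.37, adjusted p = 0.428).

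ITGA5 and LAMB3 are among the genes that rose and ITGA6 is the gene that fell. The 250 bases before a RefSeq transcription start of each are printed. Which annotated start these cells use was not tested. Capitals mark matches on either strand to GGAATG, the core that TEAD proteins bind (CATTCC on the other strand), or to TGANTCA, the site of AP-1 factors; the motifs do not overlap in these windows. The windows, 5′ to 3′ along the gene, are from RefSeq's GRCh38.p14 table: ITGA6, plus strand, chr2:172427086-172427335; ITGA5, minus strand, chr12:54419267-54419516; LAMB3, minus strand, chr1:209651375-209651624, the start inside the gene that holds an AP-1 match.
ITGA6: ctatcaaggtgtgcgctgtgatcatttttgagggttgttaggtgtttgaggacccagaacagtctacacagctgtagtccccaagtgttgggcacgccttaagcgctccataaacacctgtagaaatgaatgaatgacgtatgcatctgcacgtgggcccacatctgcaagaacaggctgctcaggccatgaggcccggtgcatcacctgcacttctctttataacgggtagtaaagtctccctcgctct
ITGA5: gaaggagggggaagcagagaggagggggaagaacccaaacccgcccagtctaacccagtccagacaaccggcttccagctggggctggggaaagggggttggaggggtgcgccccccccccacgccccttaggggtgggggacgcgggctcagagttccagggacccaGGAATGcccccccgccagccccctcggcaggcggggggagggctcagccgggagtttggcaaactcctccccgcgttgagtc
LAMB3: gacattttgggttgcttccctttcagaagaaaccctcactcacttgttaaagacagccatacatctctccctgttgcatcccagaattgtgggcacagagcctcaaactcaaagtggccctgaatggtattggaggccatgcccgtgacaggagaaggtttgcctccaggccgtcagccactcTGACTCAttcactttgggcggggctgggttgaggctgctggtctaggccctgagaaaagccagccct
The table held 33 windows for 26 of the 38 genes, among them ITGA5, ITGA6, ITGA11, LAMA4 and LAMB3 of the 8 that passed. GGAATG was in 4 of the 33 windows, those of ITGA5, ITGB1, ITGA10 and LAMA2, against 11.9% of all 35116 windows, and TGANTCA was in 2, those of LAMB3 and LAMA3, against 6.57%. In ITGA5 the match starts at position -82 from the transcription start and in LAMB3 at -67. The other windows of LAMB3, at 2 further starts, held neither motif. Neither of the windows of ITGA6 held either motif, nor did those of ITGA11 and LAMA4; no match says only that these letters are not in these bases.

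Both members of a leukocyte integrin pair rose. ITGAX (CD11c), the alpha subunit, had 43.2, 49.2 and 46.7 CPM under HC278 (replicates 1, 2, 6) and 11.7, 13.5 and 12.4 CPM under DMSO (replicates 1, 2, 3). The libraries of each group lay close together and replicate 6 did not stand apart. This was the largest rise of the 29 genes, 3.70-fold (log2 1.89, SE 0.12, edgeR adjusted p = 0.00393). ITGAX (ENSG00000140678) lies on the plus strand of chromosome 16 at 31355134 to 31382997, between ITGAM and ITGAD, other alpha partners of ITGB2. ITGAM had 1.47, 2.03 and 3.16 CPM in the HC278 libraries and 1.57, 1.48 and 1.39 CPM in the DMSO libraries and did not pass (log2 0.59, edgeR adjusted p = 0.288), and ITGAD had at most 1 count in a library. Of the settings tried, ITGAX missed the threshold in 1, without DMSO replicate 2 (log2 1.94, adjusted p = 0.0502).

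ITGB2 (CD18), the common beta subunit of leukocyte integrins, had 7.85, 7.35 and 12.9 CPM under HC278 (replicates 1, 2, 6) and 4.70, 3.84 and 4.40 CPM under DMSO (replicates 1, 2, 3). The groups did not overlap, and replicate 6 was the highest library. The log2 fold change was 1.12 (SE 0.25, edgeR adjusted p = 0.0423). The gene (ENSG00000160255) lies on the minus strand of chromosome 21 at 44885953 to 44931989, and the overlapping ITGB2-AS1, of the other strand, has 24.5% of its counts, 254 in the HC278 libraries and 70 in the DMSO libraries; the strand setting of the counting is not given, so reads of the pair may be shared. The call held without HC278 replicate 6 (log2 0.81, adjusted p = 0.00650) and was lost without any other library (adjusted p from 0.0680 to 0.179) and by library size alone (0.0865).

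Leukocyte markers moved with this pair at far lower levels. The 8 markers summed to 2.77, 2.54 and 1.70 CPM in HC278 replicates 1, 2 and 6 and to 0.908, 1.12 and 0.827 CPM in DMSO replicates 1, 2 and 3. CD14 made up most of that and was the 1 marker tested, higher at 1.71 ± 0.396 CPM under HC278 than at 0.678 ± 0.121 CPM with DMSO (SD, n = 3; edgeR adjusted p = 0.0322). PTPRC, which marks all leukocytes, was between 0.0585 and 0.386 CPM under HC278 and between 0.0591 and 0.0626 CPM with DMSO, while CD3E was at 0. ITGAL, the alpha subunit of lymphocytes, had at most 3 counts in a library. Their part in the rise of ITGAX and ITGB2 was not tested.

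Receptors for fibronectin and collagen also rose in part. ITGA5 had 166, 169 and 161 CPM under HC278 (replicates 1, 2, 6) and 107 CPM in each DMSO library. It had the tightest groups among the genes that passed, and HC278 replicate 6 was its lowest treated library. The log2 fold change of 0.63 (SE 0.10) had an edgeR adjusted p of 0.0140. ITGA5 (ENSG00000161638) lies on the minus strand of chromosome 12 at 54395261 to 54419266. The call held without HC278 replicate 1 or 6 and was lost without HC278 replicate 2 (0.0818), without DMSO replicate 1, 2 or 3 (adjusted p = 0.108, 0.116 and 0.0959) and with no filter.

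ITGA11, a subunit that with ITGB1 binds fibrillar collagen, had 4.94, 6.24 and 8.56 CPM under HC278 (replicates 1, 2, 6) and 2.19, 2.60 and 2.33 CPM under DMSO (replicates 1, 2, 3). All HC278 libraries were above all DMSO libraries, and they differed more among themselves than the DMSO libraries did. Its log2 fold change was 1.47 (SE 0.24, edgeR adjusted p = 0.0166); the gene (ENSG00000137809) lies on the minus strand of chromosome 15 at 68296532 to 68432163. The call was lost without DMSO replicate 1, 2 or 3 (adjusted p = 0.0942, 0.0902 and 0.0940) and without HC278 replicate 2 (0.0734). The other collagen receptor subunits did not pass: ITGA1 had 6.05 ± 2.86 CPM under HC278 and 3.37 ± 0.722 CPM with DMSO (SD, n = 3; edgeR adjusted p = 0.197), and ITGA2 had 13.8 ± 9.54 CPM under HC278 and 7.64 ± 2.27 CPM with DMSO (adjusted p = 0.350). ITGA1 is uncertain as well, because PELO, within it on the same strand, has 948% of its counts. ITGA10, the last collagen-binding subunit, had 4 to 10 counts in every library.

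Of the laminins that rose, LAMB3, the beta chain that joins LAMA3 in the laminin of hemidesmosomes, had 3.997, 4.25 and 3.45 CPM under HC278 (replicates 1, 2, 6) and 1.75, 1.78 and 1.71 CPM under DMSO (replicates 1, 2, 3). The groups were far apart relative to their spread, and HC278 replicate 6 was the lowest treated library. The fold change was 2.22 (log2 1.15, SE 0.16, edgeR adjusted p = 0.0119); the gene (ENSG00000196878) lies on the minus strand of chromosome 1 at 209614870 to 209652425. It was lost without DMSO replicate 1, 2 or 3 (adjusted p = 0.0823, 0.0900 and 0.0768) and without HC278 replicate 2 (0.0710). LAMA3 itself did not pass, at 16.6 ± 8.57 CPM under HC278 and 12.4 ± 1.79 CPM with DMSO (log2 0.43, adjusted p = 0.518). Per length LAMB3 had 2.57 ± 0.403 TPM under HC278, above LAMA3 in replicates 1 and 2 and below it in replicate 6, and 1.21 ± 0.0704 TPM with DMSO, below LAMA3 in each library.

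LAMA4, the alpha chain of laminins in vessels and muscle, had 10.6, 10.9 and 12.7 CPM under HC278 (replicates 1, 2, 6) and 6.92, 6.65 and 8.30 CPM under DMSO (replicates 1, 2, 3). The groups did not overlap, and its edgeR adjusted p of 0.0446 (log2 0.65, SE 0.15) was the nearest to the threshold among the 8 calls. LAMA4 (ENSG00000112769) lies on the minus strand of chromosome 6 at 112107931 to 112254939. It passed without HC278 replicate 6 (adjusted p = 0.0192) and did not without any other library (adjusted p from 0.0820 to 0.202), with no filter or by library size alone.

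LAMA5, the alpha chain of the commonest laminin of adult epithelia, lay just outside the threshold. It had 159.9, 160.2 and 325 CPM under HC278 (replicates 1, 2, 6) and 92.4, 93.5 and 107 CPM under DMSO (replicates 1, 2, 3). All HC278 libraries were higher, but replicate 6 stood far above the others. With it the log2 fold change was 1.14 (SE 0.30, edgeR adjusted p = 0.0667), and without it 0.71 (adjusted p = 0.00335); LAMA5 also passed with DESeq2 (0.00447) and with the length trend taken out (0.00379). ADRM1, which overlaps LAMA5 from the other strand, has 182% of its counts, 26667 in the HC278 libraries and 28826 in the DMSO libraries. LAMB2, the beta chain of synaptic and glomerular laminins, was alike: 116 ± 24.9 CPM under HC278 and 79.1 ± 2.504 CPM with DMSO, no overlap, adjusted p = 0.0961, and 0.0163 without HC278 replicate 6 (log2 0.35).

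ITGA3 and ITGB1, the 2 genes with the highest TPM, gave no call in the edgeR fit without a block. ITGA3 had 1277, 1306 and 1500.1 CPM under HC278 (replicates 1, 2, 6) and 1113, 1091 and 1185 CPM under DMSO (replicates 1, 2, 3). Its log2 difference was 0.27 with a 95% interval from -0.05 to 0.59 (edgeR adjusted p = 0.261). Every HC278 library was above every DMSO library. ITGA3 passed as higher with limma-voom and library weights (adjusted p = 0.00498), where 9196 genes of the whole table were called. It also passed in edgeR with the replicate number as a block (adjusted p = 0.0365), where 8172 genes were called. That block leaves HC278 replicate 6 and DMSO replicate 3 without a partner. In the edgeR fit without both of these libraries ITGA3 did not pass (log2 0.23, adjusted p = 0.0592). ITGB1 had 528, 620 and 1164 CPM under HC278 (replicates 1, 2, 6) and 678, 710.2 and 936 CPM under DMSO (replicates 1, 2, 3). For ITGB1, HC278 replicates 1 and 2 were below all DMSO libraries and replicate 6 above them, so the interval ran from -0.80 to 0.78. LAMC1, LAMA1 and LAMB1 had the same arrangement in part: with HC278 replicate 6 their log2 values were 0.24, -0.07 and 0.14, and without it -0.16, -0.35 and -0.07, none of which passed. ITGAV, which pairs with ITGB1, ITGB3, ITGB5, ITGB6 or ITGB8, had 67.9, 78.7 and 190.4 CPM in the HC278 libraries and 66.1, 69.0 and 92.4 CPM in the DMSO libraries (log2 0.57, adjusted p = 0.452; -0.05 without HC278 replicate 6).

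ITGB5 was the steadiest of the abundant beta subunits, at 182 ± 13.5 CPM under HC278 and 173 ± 3.97 CPM with DMSO (log2 0.08, 95% interval -0.19 to 0.34). ITGB8, a subunit that with ITGAV activates latent TGF-beta, had 1.51, 1.43 and 3.65 CPM under HC278 (replicates 1, 2, 6) and 3.04, 2.54 and 4.34 CPM under DMSO (replicates 1, 2, 3). It did not pass (log2 -0.58, edgeR adjusted p = 0.455), but without HC278 replicate 6 it passed as lower (log2 -1.18, adjusted p = 0.0185). LAMC3 had 1.087, 1.46 and 1.05 CPM in the HC278 libraries, all below 1.97, 2.02 and 1.68 CPM in the DMSO libraries; its log2 value of -0.66 did not pass (adjusted p = 0.113). ITGAE, which pairs with ITGB7 in lymphocytes of epithelia, had 42.5, 33.6 and 15.8 CPM under HC278 and 31.4, 28.2 and 24.3 CPM with DMSO, with replicate 6 the lowest; HASPIN, within it on the other strand, has 23.0% of its counts. ITGA7, ITGA2B, ITGB3 and LAMA2 averaged under 1 CPM in both groups, with log2 values from -0.24 to 0.31. The value of ITGA7, with 11 to 16 counts a library, is uncertain. BLOC1S1, which overlaps ITGA7 on the opposite strand, has 4090 counts in the HC278 libraries and 3051 in the DMSO libraries.

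**Figure D4:**
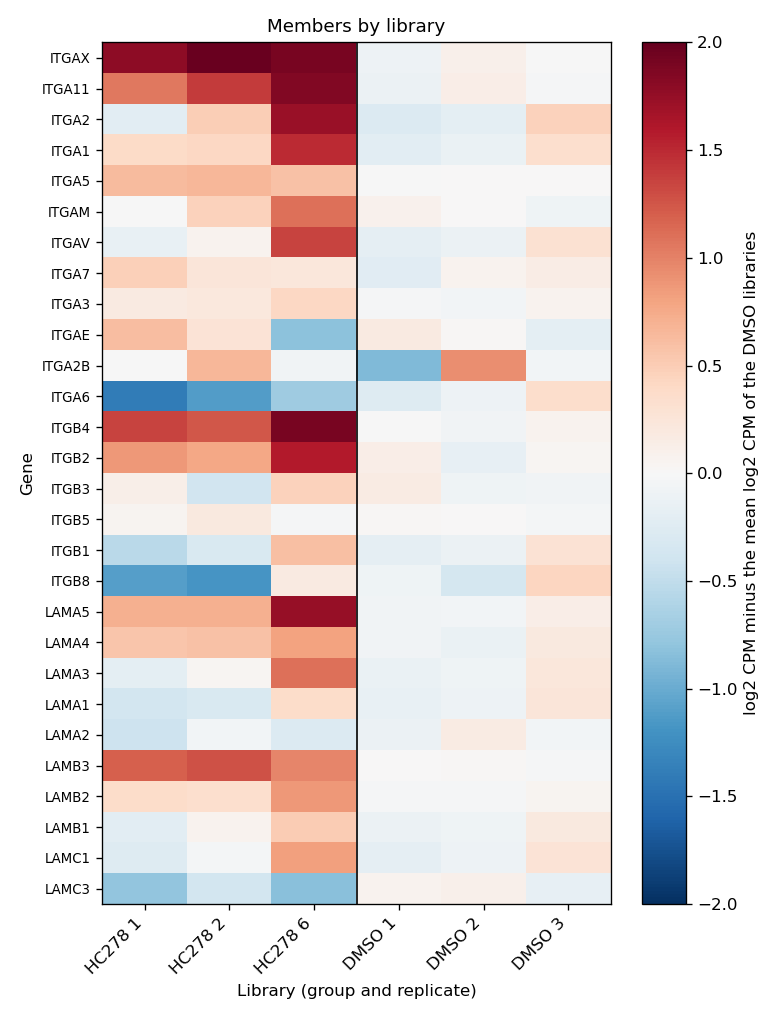
log2 CPM of each gene in each library minus its mean log2 CPM in the DMSO libraries, HC278 libraries left of the line. Rows such as ITGAX, ITGA5 and LAMB3 are of like colour in the 3 HC278 libraries, whereas ITGB1, ITGAV, LAMC1, LAMA1 and ITGB8 differ in colour between HC278 replicates 1 and 2 and HC278 replicate 6.

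Replicate 6 was the highest of the HC278 libraries for 20 of the 29 genes, against 46.4% of all genes tested, and replicate 3 the highest of the DMSO libraries for 17, against 43.4%. Without HC278 replicate 6, 9 genes passed as higher and 2 as lower, the 8 above joined by LAMA5, LAMB2 and ITGB8, where 40.6% of 15812 genes tested were called, 19.8% as higher and 20.7% as lower. Without both that library and DMSO replicate 3, ITGA1 passed as higher too, making 10 higher and 2 lower, where 40.4% of all genes were called, 19.5% as higher and 20.9% as lower. DESeq2 gave 9 higher and 1 lower, with LAMA5 and LAMB2 added to the 8, beside 18.2% of all genes, 8.8% as higher and 9.39% as lower. With a smooth trend on gene model length taken out of each library, 10 were higher and 1 lower, again with all 8 among them, and 17.3% of all genes were called, 8.15% as higher and 9.19% as lower. Replicate 6 was also the library with the most counts on long genes, and the part of its other properties in these values was not tested. Calls over the whole table, 1672 with all 6 libraries, were fewer without a DMSO library. They were also fewer without HC278 replicate 1 (819) and without HC278 replicate 2 (252). ITGAX alone passed without DMSO replicate 1, among 164 calls over all genes, and without DMSO replicate 3, among 246. No gene of the whole table passed without DMSO replicate 2, where edgeR was the only tool run. An unadjusted p under 0.05 was given there to 10 of the 30 integrin and laminin genes tested, beside 2864 of all genes.

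Shares within a pool do not depend on the scaling of a library, and several differed between the groups with no overlap. ITGB4 made up 34.2%, 29.5% and 28.6% of the summed TPM of the 8 beta subunits in HC278 replicates 1, 2 and 6, against 14.4%, 13.4% and 12.02% in DMSO replicates 1, 2 and 3. ITGB1 made up 55.2 ± 6.48% under HC278 and 71.3 ± 3.36% with DMSO (SD, n = 3). Among the alpha subunits that pair with ITGB1, taken as ITGA1 to ITGA11 and ITGAV, ITGA6 made up 2.51%, 2.93% and 3.24% under HC278, against 6.24%, 7.02% and 8.60% with DMSO. ITGA3 held 79.8 ± 2.30% of that pool under HC278 and 79.1 ± 1.54% with DMSO, and ITGA5 held 10.2 ± 1.36% under HC278 and 7.83 ± 0.454% with DMSO. A share can change because other members of its pool did.

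In the laminin alpha pool LAMA5 made up 44.5%, 43.1% and 49.3% in HC278 replicates 1, 2 and 6, against 29.04%, 28.6% and 26.7% in DMSO replicates 1, 2 and 3. LAMA1 made up 48.9%, 49.7% and 44.4% under HC278, against 64.6%, 65.1% and 67.0% with DMSO. The ratio of LAMA5 to LAMA1, also chosen after the values were seen, was 0.910, 0.868 and 1.11 under HC278 and 0.450, 0.440 and 0.398 with DMSO, with HC278 replicate 6 on the same side as the others, whereas the level of each chain in that library stood above theirs. LAMB2 held 28.5 ± 2.18% of the beta pool under HC278 and 23.3 ± 1.53% with DMSO. Of 42 shares, sums and ratios compared, 16 had the exact two-sided permutation p of 0.1 that is the smallest possible here (0.263 after Benjamini-Hochberg adjustment), among them those of ITGB4, ITGB1, ITGA6, ITGA5, LAMA5, LAMA1 and LAMB2.

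**Figure D5:**
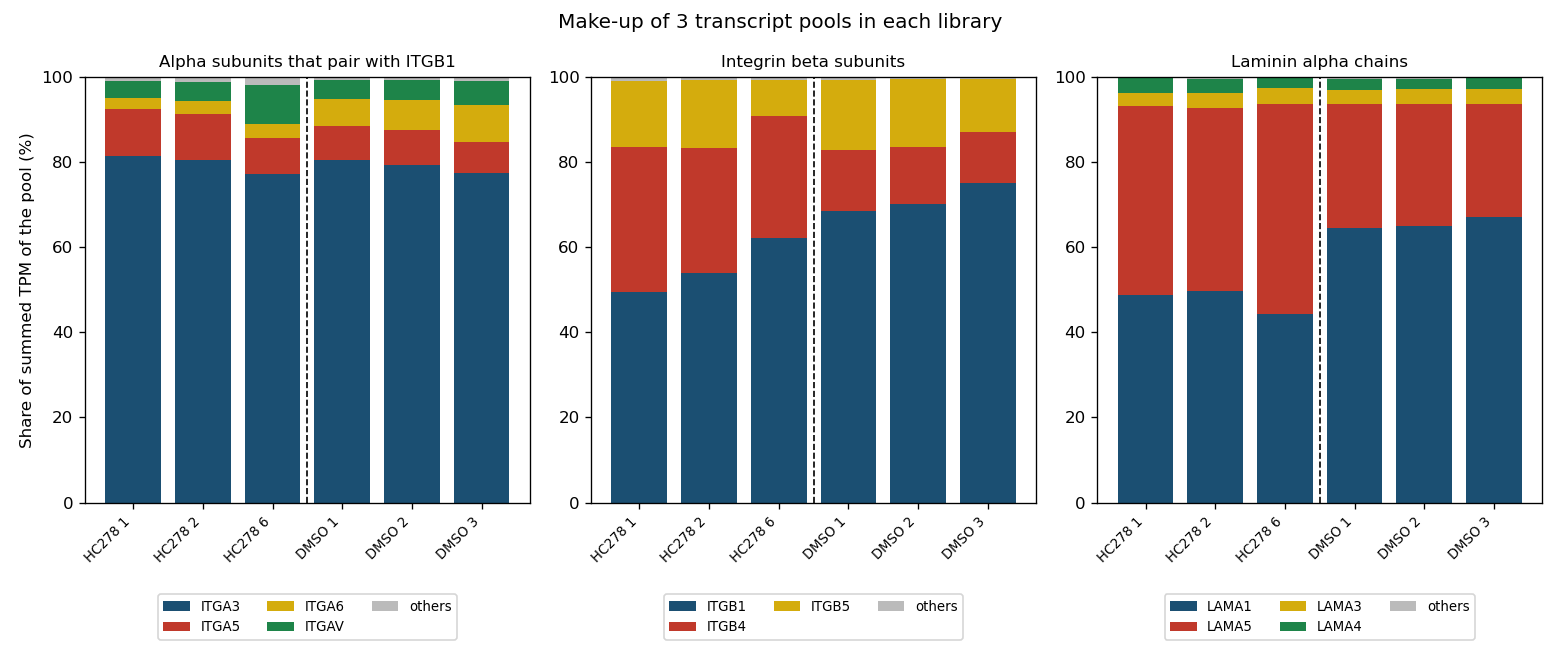
Share (%) of each gene in the summed TPM of 3 pools, by library, HC278 left of the dashed line. The ITGB4 segment is at 28.6% or more in the HC278 libraries and at 14.4% or less in the DMSO libraries, and the LAMA5 segment at 43.1% or more in the HC278 libraries and at 29.04% or less in the DMSO libraries.

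Genes that work with these receptors were read from 6 lists. Of 23 integrin ligands tested of 32, 5 rose and 1 fell, where 10.8% of all genes were called, 5.4% as higher and 5.38% as lower. Their median log2 was 0.28, beside 0.05 for all genes. Vitronectin (VTN), a ligand of the ITGAV integrins, rose to 73.7 ± 19.9 CPM under HC278, against 18.3 ± 1.35 CPM with DMSO (SD, n = 3; log2 2.01, edgeR adjusted p = 0.00660). TGFB3 (log2 1.497) and TGFB1 (log2 0.77), whose latent forms bind ITGAV integrins, rose too, and CCN2, an integrin-binding matricellular protein, fell (log2 -1.44). Without HC278 replicate 6, 6 ligands were higher and 5 lower; this count and those of the other lists in that fit stand beside 40.6% of all genes called, 19.8% as higher and 20.7% as lower.

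Of 14 basement membrane partners of laminin tested of 19, 2 rose and 2 fell (median log2 0.14), where 10.8% of all genes were called. All 4 were collagens: COL4A4 fell to 3.45 ± 1.48 CPM under HC278, against 12.99 ± 1.75 CPM with DMSO (log2 -1.91, edgeR adjusted p = 0.0172), and COL4A3, its partner in the same collagen trimer, fell to 0.144 ± 0.0972 CPM under HC278, against 0.936 ± 0.222 CPM with DMSO. COL4A6, a chain of another collagen IV trimer, rose (log2 2.44), as did COL18A1 (log2 0.51). Without HC278 replicate 6 the list had 3 higher and 7 lower, with 40.6% of all genes called. Of 10 laminin receptors other than integrins and hemidesmosome genes, 1 rose and 1 fell (median log2 0.19), against the same 10.8%. COL17A1, the transmembrane collagen that binds ITGB4 at hemidesmosomes, rose to 6.63 ± 0.589 CPM under HC278, against 3.35 ± 0.270 CPM with DMSO (log2 0.98, adjusted p = 0.0143). The syndecan SDC2 fell (log2 -1.43, adjusted p = 0.00393), and SDC4 and SDC1 did not pass, at 0.40 and -0.68. Without HC278 replicate 6, 3 of these 10 were higher and 3 lower, against the same 40.6%.

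Inside the cell, 2 of 27 adaptors of integrin tails and focal adhesions tested of 28 rose and 3 fell (median log2 0.13). This count and those of the next lists over all 6 libraries stand beside 10.8% of all genes called, 5.4% as higher and 5.38% as lower. TNS2, a tensin, rose to 40.6 ± 2.57 CPM under HC278, against 16.2 ± 0.293 CPM with DMSO (log2 1.32, edgeR adjusted p = 0.00393). Talin 2 (TLN2), which links beta subunit tails to actin, fell to 71.3 ± 6.18 CPM under HC278, against 165 ± 20.8 CPM with DMSO (log2 -1.21), and the actin cross-linker ACTN1 fell as well (log2 -0.78). KANK2, which binds talin, rose (log2 1.013), and its relative KANK1, the third to fall, was named after its value was seen (log2 -1.08). Among 24 kinases and switches 1 rose and 3 fell (median log2 -0.13): the Src-family kinase FYN (log2 -1.11), the scaffold NEDD9 (log2 -1.31) and the exchange factor ARHGEF6 (log2 -1.73) fell, and APBB1IP, which brings talin to integrins, rose to 0.941 ± 0.430 CPM under HC278, against 0.131 ± 0.0623 CPM with DMSO. Of 20 modulators of activity and traffic tested of 23 (median log2 0.19), the tetraspanin CD82 alone passed, as higher (log2 0.67, adjusted p = 0.0133); CD9, RAB21 and RAB11FIP1 had log2 values of 0.42, -0.32 and -0.62. Without HC278 replicate 6, 5 adaptors were higher and 8 lower, 2 kinases and switches higher and 10 lower, and 9 modulators higher and 3 lower, where 40.6% of all genes were called.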

How the data were processed

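Expression was read from the deposited table, which gives 4 measures for each of 6 libraries. The deposited counts are whole-number reads per gene with no normalization. The headers also give deposited TPM and RPKM values, and the measure named CPM there is a coverage signal over an adjusted library size, since its deposited columns sum to between 871859 and 1091291. The submitters' processing notes name hg38. For the aligner, counting program, strand setting and annotation: not given in the sources used here. Libraries were made with a stranded mRNA kit per the labels' protocols.

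The main test was edgeR 4.0.16 (R 4.3.3; glmQLFit, glmQLFTest, TMM factors, filterByExpr with a minimum count of 10) on the counts of 15510 genes over all 6 libraries, with no block. CPM values use the TMM-scaled library size, standard errors are the log2 fold change over the square root of F, and 95% intervals use the fit's degrees of freedom. Levels and shares use the deposited TPM. Gene model lengths were recovered from counts and TPM and calibrated on GENCODE 29. Genes were named by a rule: all 38, and up to 4 with the smallest adjusted p of each of 6 pathway lists; 7 marker lists were read as levels. The members and lists were chosen with earlier results of these data known. The test was also run on simulated counts drawn from the means and dispersions of these data, with known changes. That run held no library like HC278 replicate 6, so it cannot show how well the test suits these libraries. A member and a marker gene are not reported here, though counts and sums over their lists include them. Alternatives were 17 other settings, DESeq2 1.42.0 and limma 3.58.1 among them. RPKM and the deposited CPM columns entered no result. No pair of libraries agreed within sampling noise: chi-square per degree of freedom was at least 4.02. Promoter windows of 250 bases came from RefSeq's GRCh38.p14 table. The compound's name is written in several ways in the labels and was taken as 1 compound.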

Additional observations from a re-analysis of the deposited data

How the results depend on the processing

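The 7 higher and 1 lower calls were the same under DESeq2 size factors, upper quartile factors, limma-voom and a filter of 10 counts in 3 libraries, and all 8 passed in the fits without HC278 replicate 6, without both it and DMSO replicate 3, with the length trend taken out and with DESeq2. Library size alone gave 5 higher and 0 lower, beside 1359 calls over all genes. Library weights gave 14 higher and 4 lower of the 29, beside 9196 calls over all genes, 4583 higher and 4613 lower. The larger number of calls with library weights was thus not particular to integrins and laminins. With both libraries left out 2 were lower. Leaving out 1 library in turn gave 0 to 9 higher, 0 to 2 lower and 0 to 6413 calls over all genes, against 1672; other totals were 2818 with DESeq2, 9196 with library weights, 2690 with the length trend taken out and 6322 with both libraries left out. Upper quartile factors put the median of all genes at 0.12 and split the calls into 1009 higher and 673 lower, against 837 and 835. Replicate numbers 1 and 2 occur in both groups, with correlations of deviations of 0.517 and 0.183, while unlike numbers gave 0.384 (HC278 replicate 2 with DMSO replicate 1), 0.327 (1 with 2) and 0.685 (6 with 3), and nothing in the labels pairs them; a fit with the replicate number as a block, which leaves DMSO replicate 3 and HC278 replicate 6 without a partner, gave 13 higher, 4 lower and 8172 calls in all.

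Directions turned for 9 genes, none of which passed in the fit over all 6 libraries without a block. Of these, ITGB1 (log2 -0.28) and LAMA1 (-0.22) passed as lower and ITGAE (0.34) as higher with the replicate block, and LAMA1 (-0.21) passed as lower with library weights. The block fit called 8172 genes over the whole table and the fit with library weights 9196. ITGB1 was at 0.064 with upper quartile factors and 0.021 by library size alone. ITGB3 was at -0.29 with library weights, -0.16 with the replicate block and -0.15 without both libraries, and LAMC1 at -0.013 with the replicate block and -0.010 without both libraries. Over the fits without 1 library, the log2 fold change ran from -0.29 to 0.63 for ITGA2B, -0.19 to 0.44 for ITGAE, -0.053 to 0.82 for ITGAV, -0.44 to 0.20 for ITGB1, -0.12 to 0.30 for ITGB3, -0.35 to 0.054 for LAMA1, -0.085 to 0.65 for LAMA3, -0.075 to 0.29 for LAMB1 and -0.16 to 0.43 for LAMC1. The cause was not tested. With 3 libraries a group, a share or ratio cannot reach a p under 0.1, and genes under about 10 counts a library gave no test.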

Other observations

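Transcripts named for a neighbouring integrin or laminin gene were measured as rows of their own. ITGB1-DT, divergent from ITGB1, had 5.92, 5.55 and 4.88 CPM under HC278 (replicates 1, 2, 6) and 2.79, 2.90 and 2.25 CPM under DMSO (replicates 1, 2, 3) (log2 1.04, SE 0.17, edgeR adjusted p = 0.0180), whereas ITGB1 itself did not pass. ITGB2-AS1 had 2.98, 2.57 and 2.57 CPM in the HC278 libraries and 0.970, 0.755 and 0.414 CPM in the DMSO libraries (log2 1.92, adjusted p = 0.0183), higher in the same libraries as ITGB2. ITGA9-AS1 did not pass (log2 -0.18, adjusted p = 0.704), and ITGB5-AS1, LAMA4-AS1 and LAMC1-AS1 were at 0 in every library.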
